A study of Mus musculus with 10 samples.

Results

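The core planar cell polarity (PCP) genes were followed in RNA of the first pharyngeal arch (PA1) of mouse embryos with and without *Grhl2*. They were chosen by gene symbol from the table of counts: *Vangl1*, *Vangl2*, *Celsr1*, *Celsr2*, *Celsr3*, *Scrib*, *Ptk7*, *Prickle1* and *Prickle2*, 9 of 22114 protein-coding genes. All 9 had at least 10 counts in at least 1 arch and were tested among 14561 genes that did. The PA1 is the facial swelling that gives rise to the upper and lower jaw, a mesenchymal core covered by epithelium. It was dissected at E10.5 from 5 wild-type (*Grhl2+/+*) and 5 *Grhl2-/-* male embryos on a C57BL/6 background (a line backcrossed to C57BL/6J), and each arch was sequenced as its own library. The *Grhl2* allele is a null allele that removes the factor from every tissue of the embryo, and the embryos came from crosses between heterozygotes. *Grhl2* encodes a transcription factor of the surface epithelium, whereas the RNA came from the whole arch.

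PCP is the alignment of cells within the plane of a tissue, and convergent extension, neural tube closure and the orientation of hair cells and cilia depend on it. In its core, the atypical cadherins CELSR1 to CELSR3 bridge neighbouring cells, VANGL and PRICKLE proteins gather at one face of each cell, and Frizzled and Dishevelled gather at the opposite face. SCRIB and PTK7 cooperate with VANGL2, and effectors downstream act on the actin cytoskeleton. Mouse mutants of *Vangl2*, *Celsr1*, *Scrib* or *Ptk7* fail to close the neural tube.

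Read depth was similar in both genotypes, between 22188454 and 28596428 counts in wild-type arches and between 25658389 and 28801378 in *Grhl2-/-* arches. The labels number the embryos but do not say which shared a litter. No pair of arches of one genotype agreed within sampling noise (chi-square per gene between 6.94 and 25.1 over 20 pairs). *Grhl2* itself was at 31.8 to 40.5 CPM, that is counts scaled to the size of each library, in wild-type arches and at 2.80 to 6.33 CPM in *Grhl2-/-* arches. Of 10 surface epithelium genes, 7 were lower in *Grhl2-/-* arches, and their summed level was 299 to 409 CPM in wild-type and 121 to 216 CPM in *Grhl2-/-* arches. In RNA of whole arches, fewer cells of a type and less RNA per cell cannot be told apart. The 8 arch mesenchyme genes, such as *Prrx1*, *Twist1* and *Pdgfra*, were detected in every arch. All 8 had negative log2 fold changes (median -0.27), 1 of them was lower (*Msx1*, FDR 0.00595), and their sums were 1462 to 1829 CPM in wild-type and 1203 to 1434 CPM in *Grhl2-/-* arches, which do not overlap. The arches stood apart in their sensory neuron genes: 12 of these summed to 52.9 and 43.4 CPM in wild-type replicates 1 and 2 and to between 362.3 and 1456 CPM in the other 8 arches. Results that this touches are given with and without that pair of wild-type arches.

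None of the core PCP genes passed FDR 0.01 in either direction. With limma-voom, 0 of 9 were lower and 0 of 9 were higher in *Grhl2-/-* PA1, where 1.09% of all genes tested were lower and 0.879% were higher (1.96% in either direction). At an unadjusted p below 0.05 there were 3 of 9, *Ptk7*, *Celsr1* and *Celsr2*, all with positive differences, beside 28.5% of all genes tested. Without wild-type replicates 1 and 2 their unadjusted p by limma-voom was 0.0351, 0.0928 and 0.0820, in that order. edgeR's quasi-likelihood test and DESeq2 also called 0 of 9 at FDR 0.01. The median log2 fold change of the 9 genes was 0.04, and that of all genes tested was 0.01. In 1 of 9, *Ptk7*, the values of the genotypes did not overlap, which held for 8.88% of all genes tested.

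**Figure D1:**
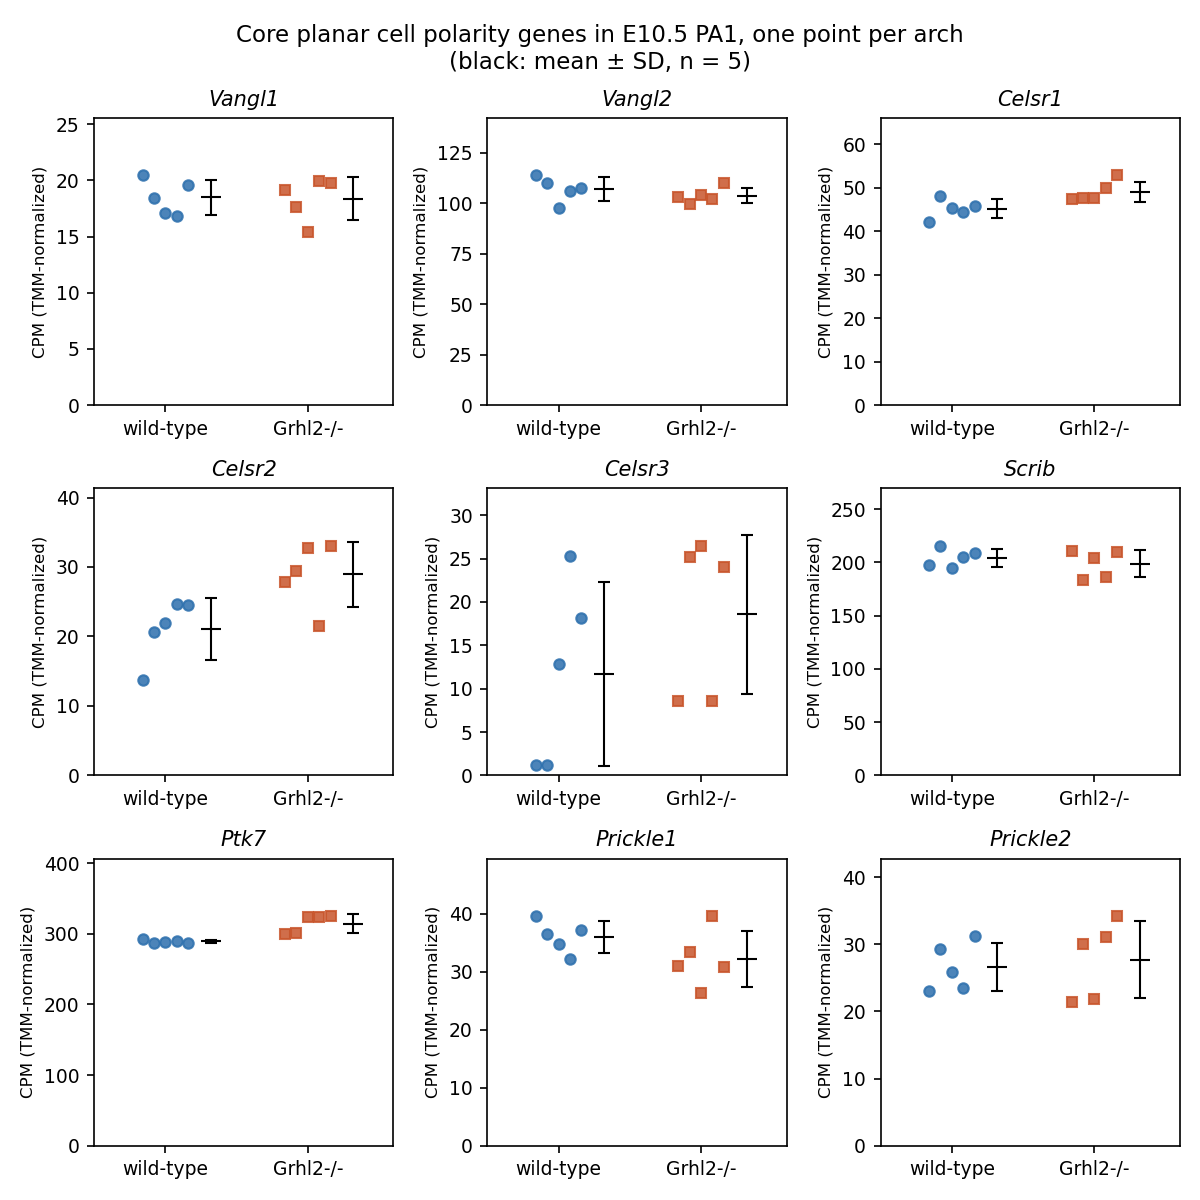
Level of each core PCP gene in every arch, in TMM-normalized CPM on an axis from 0, for wild-type (blue circles) and Grhl2-/- (orange squares) arches in the order of their replicate numbers, with mean ± SD (black, n = 5). Ptk7 is the gene whose groups are apart (287.3 to 293.3 CPM against 299.8 to 325.2 CPM), and Celsr3 has the widest spread as a ratio, from 1.15 to 26.5 CPM.

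Per kilobase of exon, the 9 genes spanned a wide range of levels in wild-type PA1. *Ptk7* was highest at 53.8 ± 0.460 CPM per kb (SD, n = 5), followed by *Scrib* at 31.7 ± 1.31 CPM per kb and *Vangl2* at 15.3 ± 0.856 CPM per kb. *Prickle1* had 8.29 ± 0.636 and *Celsr1* had 4.10 ± 0.197 CPM per kb. None of these 5 genes overlapped with its neighbours in this order in either genotype. Below them came *Prickle2* (3.08 ± 0.412 CPM per kb), *Vangl1* (2.58 ± 0.216), *Celsr2* (1.84 ± 0.388) and *Celsr3* (0.971 ± 0.879). Among these lower genes the levels of *Prickle2* and *Vangl1* overlapped in both genotypes, as did those of *Celsr2* and *Celsr3*, and those of *Vangl1* and *Celsr2* overlapped in *Grhl2-/-* arches. The order of the mean levels was the same in *Grhl2-/-* PA1, from *Ptk7* at 58.4 ± 2.43 to *Celsr3* at 1.54 ± 0.760 CPM per kb. Within both pairs of paralogs named VANGL and PRICKLE, 1 gene stood above the other in PA1 RNA, *Vangl2* above *Vangl1* and *Prickle1* above *Prickle2*.

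**Figure D2:**
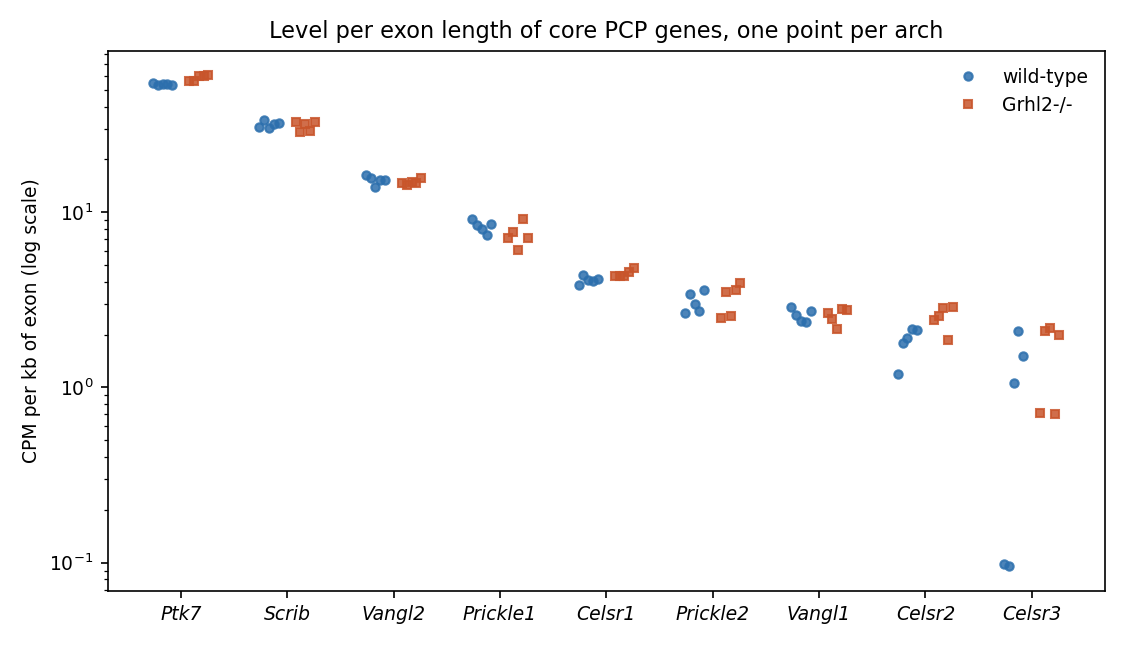
CPM per kilobase of exon (log scale) of the 9 genes in wild-type (blue circles) and Grhl2-/- (orange squares) arches, 1 point per arch, ordered by wild-type mean. Both genotypes keep the order from Ptk7 (53.8 and 58.4 CPM per kb on average) to Celsr3 (0.971 and 1.54), and a pair of wild-type arches lies far below the rest for Celsr3.

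The DNA before a RefSeq start site of the genes the results turn on was read for the recognition motif of GRHL factors. Each window is the 250 bases before a RefSeq start (GRCm38.p6), 5′ to 3′ on the strand of the gene, and capitals mark GGGCGG on either strand (CCGCCC on the other), the GC box of many promoters. *Vangl2* and *Ptk7* are members of the core, *Celsr3* is the member whose level varied most on the log2 scale, and *Arhgef19* is the other PCP gene that changed. They lie at chr1:172027296-172027545 (minus strand, *Vangl2*), chr17:46629505-46629754 (minus strand, *Ptk7*), chr9:108825795-108826044 (plus strand, *Celsr3*) and chr4:141244838-141245087 (plus strand, *Arhgef19*). The windows of *Vangl2* and *Arhgef19* lie inside the span that GENCODE gives these genes, which starts further upstream.
Vangl2: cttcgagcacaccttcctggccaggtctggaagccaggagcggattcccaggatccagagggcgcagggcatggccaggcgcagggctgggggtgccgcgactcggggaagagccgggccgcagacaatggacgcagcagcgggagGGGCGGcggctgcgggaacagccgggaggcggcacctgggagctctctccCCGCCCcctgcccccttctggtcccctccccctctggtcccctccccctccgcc
Ptk7: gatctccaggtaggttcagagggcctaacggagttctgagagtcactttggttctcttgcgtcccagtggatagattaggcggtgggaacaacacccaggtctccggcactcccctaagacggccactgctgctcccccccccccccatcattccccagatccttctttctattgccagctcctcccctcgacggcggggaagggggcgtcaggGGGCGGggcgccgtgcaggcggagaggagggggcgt
Celsr3: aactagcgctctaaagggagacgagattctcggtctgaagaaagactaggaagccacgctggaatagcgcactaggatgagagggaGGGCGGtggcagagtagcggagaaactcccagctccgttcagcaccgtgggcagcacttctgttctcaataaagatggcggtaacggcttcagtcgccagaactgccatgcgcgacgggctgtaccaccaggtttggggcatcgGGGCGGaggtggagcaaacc
Arhgef19: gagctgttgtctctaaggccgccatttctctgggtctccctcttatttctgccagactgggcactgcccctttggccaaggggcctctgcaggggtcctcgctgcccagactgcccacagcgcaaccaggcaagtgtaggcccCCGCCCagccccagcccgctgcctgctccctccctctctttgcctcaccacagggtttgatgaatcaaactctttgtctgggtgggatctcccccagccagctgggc

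RefSeq windows were matched for 6 of the 9 members, with 10 windows in all. The GRHL motif AACCGGTT, which reads the same on both strands, was in 0 of these 10 windows and in 0.116% of 32851 windows over all genes. The looser form AACNGGTT, which includes it and was searched on both strands, was in 0 of 10 and in 1.79% of all windows. The GC box was in 8 of 10 windows of members, in 30 of the 52 windows of other PCP genes and in 32.7% of all windows. Windows of one gene can overlap, and these letters being absent from 250 bases says nothing of sites elsewhere. Among 52 windows of 35 other PCP genes, AACCGGTT was in 0 and AACNGGTT in 1, before *Fuz*, at chr7:44895829-44896078 (plus strand). The match is on the minus strand, and capitals mark it as AACCAGTT on the strand printed.
Fuz: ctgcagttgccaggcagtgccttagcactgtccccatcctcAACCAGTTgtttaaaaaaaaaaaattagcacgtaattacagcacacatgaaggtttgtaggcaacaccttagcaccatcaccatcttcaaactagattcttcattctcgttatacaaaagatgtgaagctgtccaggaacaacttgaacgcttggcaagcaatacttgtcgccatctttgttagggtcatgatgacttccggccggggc

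The VANGL genes encode multi-pass membrane proteins that recruit PRICKLE. *Vangl2*, at chr1:172000960-172028444 on the minus strand (GRCm38, GENCODE M21), had 113.7, 110.0, 97.6, 106.2 and 107.3 CPM in the 5 wild-type arches and 102.8, 99.6, 104.3, 101.9 and 109.7 CPM in the 5 *Grhl2-/-* arches. All *Grhl2-/-* values fell inside the wild-type range. limma-voom gave a log2 fold change of -0.04 (SE 0.0456, FDR 0.565), and its 95% confidence interval ran from a decrease of 9.42% to an increase of 4.02%. When single arches were left out it lay between -0.08 (without wild-type replicate 3) and -0.02 (without wild-type replicate 1). *Vangl1* (chr3:102153583-102204693, minus strand), its paralog, had 20.4, 18.4, 17.1, 16.9 and 19.6 CPM in wild-type arches and 19.1, 17.6, 15.4, 19.96 and 19.7 CPM in *Grhl2-/-* arches. The groups overlapped nearly completely. Its log2 fold change was -0.01 (SE 0.0849, FDR 0.968), with an interval from -12.5% to 13.2%, and the sign turned with small changes of the fit.

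The PRICKLE genes encode cytoplasmic LIM domain proteins that bind VANGL at the same cell face. *Prickle1* (chr15:93499114-93595891, minus strand), which is needed for facial and limb outgrowth in mice, had 39.6, 36.5, 34.8, 32.1 and 37.1 CPM in wild-type arches and 31.0, 33.4, 26.4, 39.5 and 30.8 CPM in *Grhl2-/-* arches. In 3 of 5 *Grhl2-/-* arches it lay below every wild-type arch, while replicate 4 lay near the wild-type maximum. Between the genotypes the log2 fold change was -0.17 (SE 0.0955, FDR 0.269), with an interval from -22.9% to 2.99%. It was -0.09 without *Grhl2-/-* replicate 3 and also -0.09 with the sensory neuron covariate. Without *Grhl2-/-* replicate 4 it was -0.245, with a log2 interval from -0.42 to -0.07 (FDR 0.114). *Prickle2* (chr6:92370908-92706155, minus strand) had 23.1, 29.3, 25.8, 23.6 and 31.2 CPM in wild-type arches and 21.4, 30.1, 21.9, 31.1 and 34.2 CPM in *Grhl2-/-* arches. Low and high arches occurred in both genotypes. Its log2 fold change was 0.04 (SE 0.141, FDR 0.891), with an interval from -17.2% to 27.1%, and its sign turned in 6 of 22 alternatives.

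*Scrib*, at chr15:76047158-76069784 on the minus strand, encodes a basolateral scaffold that binds VANGL2 and also acts in apico-basal polarity. It had 197.9, 215.6, 194.7, 204.6 and 209.1 CPM in wild-type arches and 210.3, 183.8, 204.5, 186.4 and 209.6 CPM in *Grhl2-/-* arches. Replicates 2 and 4 of the *Grhl2-/-* arches lay below the wild-type range and the other 3 inside it. *Scrib* differed by a log2 fold change of -0.04 (SE 0.0489, FDR 0.620), with an interval from -9.72% to 4.72%, and lay between -0.07 and -0.02 when single arches were left out. *Scrib* (4356 to 5997 reads per arch) and *Vangl2* (2503 to 3061) had, with *Ptk7* and *Celsr1*, the smallest standard errors of the 9 genes.

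*Ptk7* encodes a receptor-like pseudokinase that acts with ROR2 in WNT5A signalling, and its interval was the narrowest of the 9. The gene (chr17:46564471-46629504, minus strand) had 293.3, 287.4, 289.1, 290.4 and 287.3 CPM in the 5 wild-type arches. In the 5 *Grhl2-/-* arches it had 299.8, 300.9, 323.8, 323.5 and 325.2 CPM. The wild-type arches lay within a few CPM of each other, and every *Grhl2-/-* arch lay above all of them. The log2 fold change was 0.12 (SE 0.0341, unadjusted p 0.00467, FDR 0.0544), an 8.63% higher level with an interval from 3.14% to 14.4%, so *Ptk7* did not pass the threshold. edgeR's FDR was 0.0490 and that of DESeq2 was 0.0111. Without wild-type replicates 1 and 2 the level was 7.77% higher, with an FDR of 0.242 by limma-voom. Nonoverlapping groups with the *Grhl2-/-* arches higher held for 4.22% of all genes tested. The summed level of the neuroepithelium genes, most of which is *Nes* and *Sox2*, was 162 to 203 CPM in wild-type and 230 to 298 CPM in *Grhl2-/-* arches. Of 7 of them tested, 1 was higher (*Nes*), 2 had groups that did not overlap (*Nes* and *Sox2*), and *Sox1* and *Olig3* were listed at 0 in some wild-type arches. All 6 endothelium genes and all 5 pharyngeal endoderm genes tested also had positive log2 fold changes, and 0 of either list passed FDR 0.01. In each list 1 gene had groups that did not overlap, *Pecam1* (FDR 0.0257) and *Sox17* (FDR 0.0110). All 6 erythroid genes had negative log2 fold changes. The part of neuroepithelium, endothelium or endoderm in the *Ptk7* values was not tested.

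The CELSR genes encode the large cadherins that hold the PCP complex together across cell borders. *Celsr1* (chr15:85898929-86033777, minus strand), the member best known in epidermis and neural plate, had 42.1, 48.0, 45.2, 44.5 and 45.9 CPM in wild-type arches and 47.3, 47.7, 47.6, 50.03 and 52.8 CPM in *Grhl2-/-* arches. Only wild-type replicate 2 lay among the *Grhl2-/-* values. The log2 fold change was 0.12 (SE 0.0479, unadjusted p 0.0302, FDR 0.134), with an interval from 0.937% to 16.7%. Without wild-type replicates 1 and 2 it was 0.10, with a log2 interval from -0.02 to 0.23 (FDR 0.348).

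*Celsr2* (chr3:108390851-108415552, minus strand), which acts with *Celsr3* in axon tracts and in ciliated ependyma, had 13.8, 20.6, 21.99, 24.7 and 24.6 CPM in wild-type arches. In *Grhl2-/-* arches it had 27.9, 29.4, 32.8, 21.5 and 33.1 CPM. In 4 of 5 *Grhl2-/-* arches it lay above every wild-type arch, and replicate 4 lay within the wild-type range. This gave a log2 fold change of 0.45 (SE 0.158, unadjusted p 0.0155, FDR 0.0972), with an interval from 7.38% to 73.7%, and DESeq2 gave an FDR of 0.0356. It was 0.26 with the mean of the sensory neuron genes in the model (FDR 0.277) and 0.26 without wild-type replicates 1 and 2 (FDR 0.332).

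*Celsr3* (chr9:108826320-108852969, plus strand), a guidance gene of growing axons, varied most on the log2 scale. It had 1.18, 1.15, 12.8, 25.3 and 18.1 CPM in wild-type arches, from 26, 32, 367, 696 and 449 reads. In *Grhl2-/-* arches it had 8.60, 25.2, 26.5, 8.54 and 24.0 CPM, from 241, 651, 765, 240 and 621 reads. Wild-type replicates 1 and 2 lay far below all other arches, and the remaining 3 wild-type arches lay among the *Grhl2-/-* arches. The log2 fold change was 1.36 (SE 0.798, FDR 0.278) with a 95% interval from -0.38 to 3.11. It was 0.66 with edgeR (FDR 0.573) and 0.66 with DESeq2 (FDR 0.652), and ran from 0.71 without wild-type replicate 2 to 1.89 without wild-type replicate 4 when single arches were left out.

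The level of *Celsr3* moved with the sensory neuron genes from arch to arch. Their summed level was 52.9, 43.4, 649, 1122 and 700.0 CPM in the 5 wild-type arches and 362.3, 1101, 1456, 424 and 1041 CPM in the 5 *Grhl2-/-* arches. As a percentage of this sum, *Celsr3* stood at 2.23, 2.65, 1.97, 2.26 and 2.59% in wild-type arches. In *Grhl2-/-* arches it stood at 2.37, 2.29, 1.82, 2.01 and 2.30%. The shares overlapped between the genotypes, although the *Celsr3* level itself spread over more than an order of magnitude. Of the 12 sensory neuron genes, 0 passed limma-voom at FDR 0.01 and 2 were at an unadjusted p below 0.05. Over all 10 arches, all 12 had positive log2 fold changes (median 2.06), and their FDR ranged from 0.110 to 0.313. Outside wild-type replicates 1 and 2, the wild-type sums (649 to 1122 CPM) lay inside the *Grhl2-/-* range of 362.3 to 1456 CPM. The 6 ganglion glia genes also had their lowest sums in wild-type replicates 1 and 2, at 49.1 and 46.1 CPM against 77.4 to 229 CPM in the other arches. Of these, 0 passed limma-voom, 0 were at an unadjusted p below 0.05, 5 had positive log2 fold changes and *Erbb3*, the most abundant, had a negative one (-0.15). The part of neurons and of glia in the *Celsr3* values was not tested separately. The defining neuronal gene *Tubb3* was at 12.2 and 6.61 CPM in wild-type replicates 1 and 2 and at 102 to 414 CPM in the other arches. With these genes as a covariate the log2 fold change of *Celsr3* was -0.14, with an interval from -0.41 to 0.13 (FDR 0.553). Without wild-type replicates 1 and 2 it was -0.16, with an interval from -1.10 to 0.78 (FDR 0.882).

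**Figure D3:**
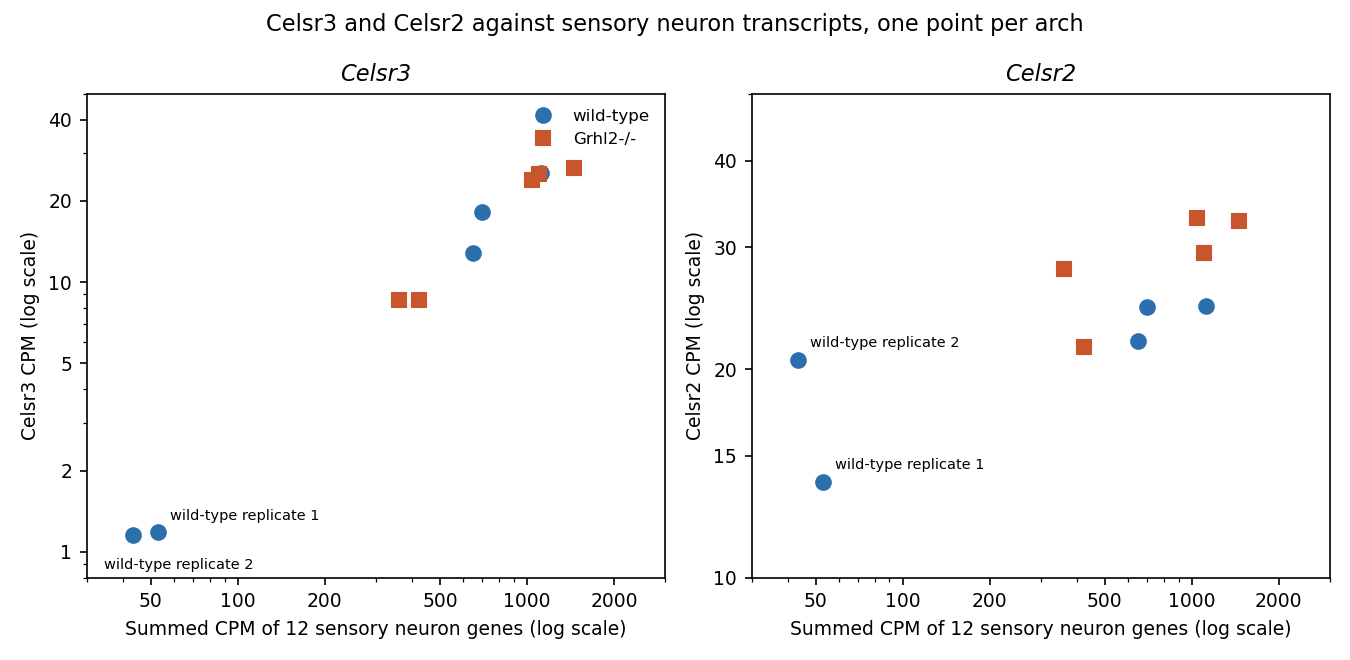
Celsr3 (left) and Celsr2 (right) in CPM against the summed CPM of 12 sensory neuron genes, both axes on a log scale, 1 point per arch (blue circles wild-type, orange squares Grhl2-/-). For Celsr3 both genotypes lie along one line that runs down to wild-type replicates 1 and 2, while for Celsr2 the points are more scattered (r of 0.973 and 0.580 over the other 8 arches).

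The relation was also computed over the 8 arches other than wild-type replicates 1 and 2, which form a cluster of their own. The log2 level of *Celsr3* and the log2 summed level had a Pearson r of 0.973 (exact two-sided permutation p 7.44e-05, adjusted over the 9 members 0.00067) and a Spearman rho of 0.976 (exact permutation p 0.000397, adjusted 0.00357). Without the pair of arches farthest from the median, *Grhl2-/-* replicates 1 and 4, r was 0.913 over 6 arches. For *Celsr2* r was 0.580 over the 8 arches (exact permutation p 0.135, adjusted 0.303) and rho was 0.548 (exact permutation p 0.171, adjusted 0.486). The other 7 members had r between -0.648 and 0.286, and their adjusted p was 0.303 or more. Over the same 6 arches r was 0.783 for *Celsr2*, 0.697 for *Ptk7* and -0.869 for *Prickle1*, so these relations also rest on which arches are kept, and the difference of r between members was not tested. The 8 arches include both genotypes, and the cluster was set aside after its values were seen.

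**Figure D4:**
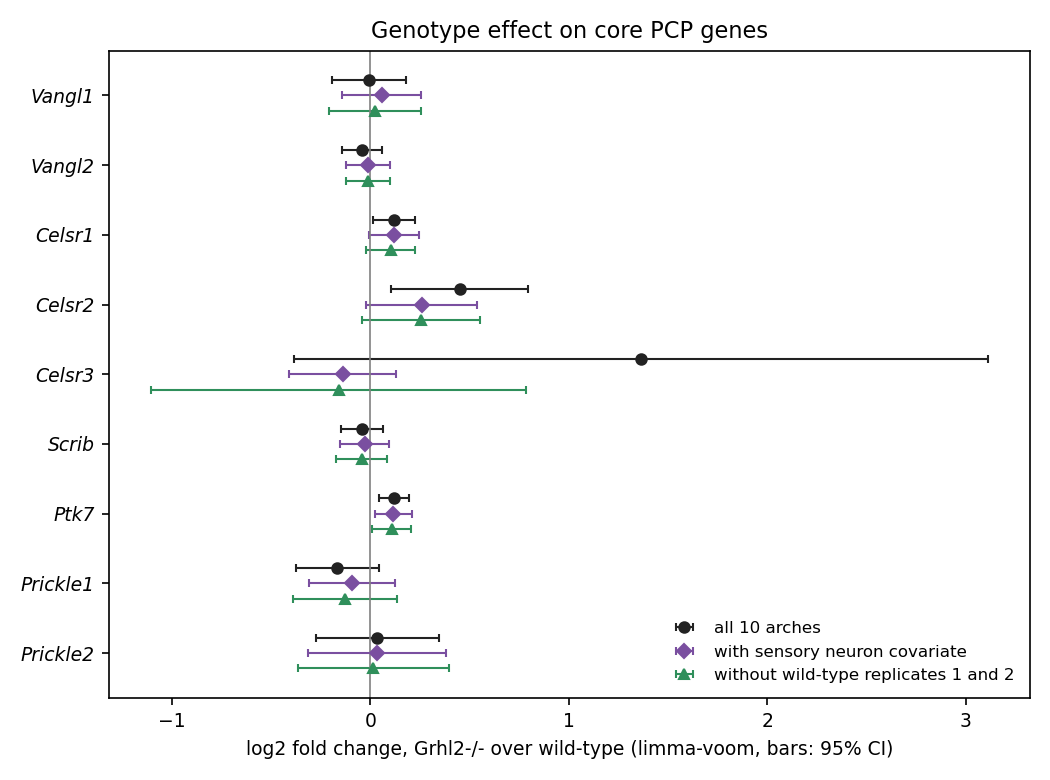
Log2 fold change of each core PCP gene in Grhl2-/- over wild-type PA1 by limma-voom, with 95% confidence intervals, from all 10 arches (black), with the sensory neuron genes as a covariate (purple) and without wild-type replicates 1 and 2 (green). Celsr3 moves from 1.36 to -0.14 and -0.16, Celsr2 from 0.45 to 0.26, and the other 7 genes stay between -0.17 (Prickle1) and 0.12 (Celsr1). The interval of Ptk7 lies above 0 in each of these fits.

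Over the 10 arches the members varied partly together. Between *Celsr2* and *Celsr3* r was 0.81, and 0.60 over the 8 arches other than wild-type replicates 1 and 2. Between *Celsr1* and *Ptk7* it was 0.71 (0.84 over the 8), between *Vangl1* and *Prickle1* 0.70 (0.65), and *Celsr2* and *Prickle1* ran opposite at -0.81 (-0.82). These values describe 10 arches that share genotype and tissue makeup, and the highest of 14560 correlations over so few arches can be high among unrelated genes. Among the 14560 other genes tested, those most like *Celsr3* were *Celf3* (r 0.997), a neuronal RNA-binding protein, and *Npr2* (0.996), a natriuretic peptide receptor, at 0.989 and 0.992 over the 8. The closest to *Celsr2* were *Tubb4a*, a neural tubulin, and *Sct* (0.956 and 0.945, and 0.930 and 0.903 over the 8). The closest to *Ptk7* were *Fam134b* and *B4galt5* (0.961 and 0.931), and to *Celsr1* the insulin receptor substrate genes *Irs3* and *Irs2* (0.959 and 0.954). For *Vangl2* they were *Cfap57* and *Phf2* (0.946 and 0.943), for *Vangl1* *Thap4* and *Gm3667* (0.965 and 0.911) and for *Scrib* *Dpp9* and *Cdc42bpb* (0.953 and 0.934). For *Prickle1* they were *Olfml1* and *Cdc42bpg* (0.978 and 0.917), and for *Prickle2* *Tfip11* and *Tfrc* (0.956 and 0.946).

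The rest of the PCP pathway was looked at through 42 further genes, of which 41 were tested, all but *Prickle4*. Of these 41, 1 was lower and 0 were higher in *Grhl2-/-* PA1, and 9 were at an unadjusted p below 0.05. Among all genes tested, 1.09% were lower, 0.879% were higher and 28.5% were at an unadjusted p below 0.05. edgeR's quasi-likelihood test also called 0 higher, and DESeq2 called 2, *Fuz* and *Dact1*. The gene that fell was *Arhgef19*, a RhoA exchange factor known as a PCP effector in gastrulation and as a GRHL3 target in epidermal repair. The paper that reported these data counts it among known GRHL2 targets. Its chromatin immunoprecipitation from E10.5 PA1 enriched the *Arhgef19* binding site with a GRHL2 antibody. In these counts *Arhgef19* had 7.63, 8.48, 6.10, 6.00 and 6.99 CPM in wild-type arches, from 165 to 236 reads. In *Grhl2-/-* arches it had 0.321, 0.581, 0.554, 0.712 and 0.425 CPM, from 9 to 20 reads. The groups were far apart, with every *Grhl2-/-* arch below every wild-type arch. Its log2 fold change was -3.75 (SE 0.243, FDR 6.77e-06), a 92.6% lower level. Of the 10 surface epithelium genes, 7 were lower in the same arches, from *Cldn4* (log2 fold change -3.32) to *Cldn7* (-1.63), and the keratin genes *Krt8*, *Krt18* and *Krt19* did not pass the test (-0.40, -0.07 and 0.02). None of the 10 was at 0 in any arch, and their part in the fall of *Arhgef19* was not tested. *Arhgef19* lies at chr4:141239499-141257564 on the plus strand.

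The receptor and ligand groups showed small differences. Of 10 Frizzled and Dishevelled partners tested, 0 passed limma-voom and 2 were at an unadjusted p below 0.05, and the median log2 fold change was 0.11. The largest difference was that of *Ankrd6*, the mammalian Diversin, at 0.21 (FDR 0.128), from 28.6 ± 2.12 CPM in wild-type to 33.4 ± 3.98 CPM in *Grhl2-/-* arches (SD, n = 5). *Fzd7*, a Frizzled receptor chosen after its values were seen, had nonoverlapping groups (164.4 to 177.2 CPM against 178.4 to 201.4 CPM, FDR 0.0531). Of 6 ligands and co-receptors, which include *Wnt5a*, *Ror2* and *Ryk*, 0 passed and 1 was at an unadjusted p below 0.05, with a median of 0.02. That gene was *Ryk*, a WNT-binding pseudokinase, at 139.5 to 155.0 CPM in wild-type and 126.1 to 138.9 CPM in *Grhl2-/-* arches (log2 fold change -0.13, FDR 0.0680).

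Among the 7 Scribble partners of the DLG and LLGL families, 0 passed and 2 were at an unadjusted p below 0.05, with a median log2 fold change of -0.04. The largest difference was in *Dlg2* at -0.98 (FDR 0.223), a gene with only 9 to 72 reads per arch whose groups overlapped. Of the 4 cilia-linked effectors, 0 passed and 1 was at an unadjusted p below 0.05, with a median of 0.07. This was *Fuz*, needed for ciliogenesis, which had 12.9, 12.1, 14.2, 11.7 and 11.4 CPM in wild-type and 16.4, 19.1, 14.3, 17.4 and 14.2 CPM in *Grhl2-/-* arches. Its lowest *Grhl2-/-* arch was barely above its highest wild-type arch. Its log2 difference of 0.38 had an FDR of 0.0398 by limma-voom and 0.00562 by DESeq2. Without wild-type replicates 1 and 2 it was 0.37, with an FDR of 0.187 by limma-voom. With the sensory neuron covariate the FDR was 0.0885. Of its exon bases, 24.1% overlap the model *D7Bwg0826e* and 14.4% the protein-coding *Ap2a1*, both on the opposite strand. The name of the deposited table holds the word reverse, but the strand setting of the counting is not stated in the sources used here. Of 9 cytoskeletal effectors besides *Arhgef19*, 0 passed, and the largest difference was in *Daam2*, a formin, at -0.37 (FDR 0.144). *Rhoa*, *Rac1*, *Cdc42*, *Rock1* and *Rock2* had log2 fold changes between -0.03 and 0.05, and 51.4% of the exon bases of *Rac1* overlap the opposite-strand *Daglb*. Of 4 regulators, 0 passed limma-voom and 1 was at an unadjusted p below 0.05, with a median of 0.04. This was *Dact1*, a Dishevelled-binding protein, which had 85.1, 87.7, 92.3, 102.7 and 96.7 CPM in wild-type and 115.7, 105.4, 131.0, 121.9 and 108.0 CPM in *Grhl2-/-* arches. All *Grhl2-/-* arches were above all wild-type arches, and the log2 difference of 0.32 had an FDR of 0.0190 by limma-voom and 0.000451 by DESeq2. Over the 22 alternatives the FDR of *Dact1* reached up to 0.148. Of its exon bases, 34.9% overlap an opposite-strand gene.

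**Figure D5:**
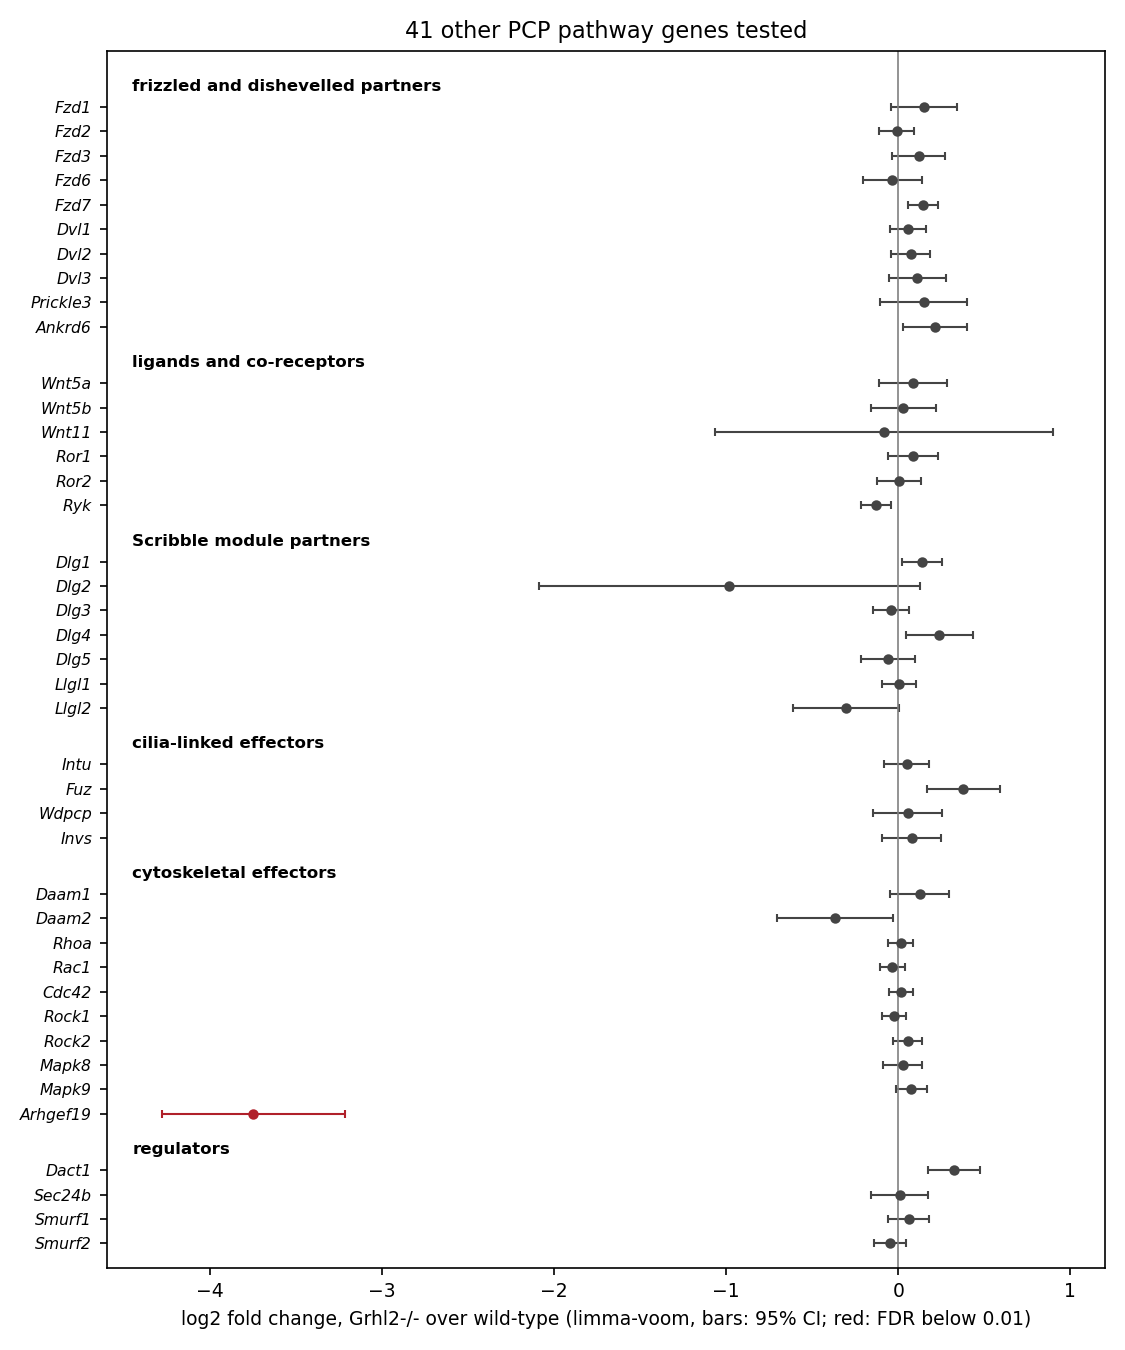
Log2 fold change in Grhl2-/- over wild-type PA1, with 95% confidence intervals by limma-voom, of the 41 other PCP pathway genes tested, grouped by role. Arhgef19 (red, -3.75) is the gene past FDR 0.01, and the other 40 lie between -0.98 (Dlg2) and 0.38 (Fuz).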

How the data were processed

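PA1 RNA of 10 embryos was sequenced as stranded, ribosomal RNA-depleted libraries with 50-bp single-end reads. Reads were aligned by the authors with STAR to GRCm38 and counted with featureCounts (versions and annotation release not given in the sources used here), and the deposited counts per gene were used as they stood. A further table, the authors' own comparison with a repeat of the counts, was not used.

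The filter kept each gene that reached 10 counts in 1 arch or more. The kept counts were normalized by TMM and fitted with limma-voom on genotype alone (limma 3.58.1, edgeR 4.0.16, R 4.3.3), and p-values were adjusted by Benjamini-Hochberg over all genes tested (FDR below 0.01). CPM are TMM-normalized and given in replicate order, log2 CPM used a prior count of 0.5, and CPM per kb used exon lengths of GENCODE M21. The members and lists were chosen with earlier results of these data known. Named genes were the members, each pathway gene past the threshold, the largest other difference in each pathway list, and the 2 genes most correlated with each member. The alternatives were edgeR, DESeq2 1.42.0, other scalings, filters, weights, thresholds and models, and leaving out arches. Scripts were tested on simulated data. P-values measure the spread between single embryos. A read count has counting error beside it, and at 3 reads the level was 0.104 to 0.135 CPM.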

Additional observations from a re-analysis of the deposited data

Results flagged for a closer look

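Of 60 groups of 5 arches examined for a sample far from the others, 2 stood out, where chance gives about 3. Both were wild-type groups of pathway genes outside the core. *Ankrd6* was at 5.01 log2 CPM in wild-type replicate 3 and at 4.82 or less in the other 4 wild-type arches. *Ryk* was at 7.28 log2 CPM in wild-type replicate 1 and at 7.15 or less in the other 4.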

How the results depend on the processing

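The 9 core genes had 0 lower and 0 higher calls in all 22 alternatives, and *Arhgef19* was called lower in all 22. Among other pathway genes, 2 were called higher with DESeq2 and 2 at FDR 0.05 (*Fuz* and *Dact1* in both). Over all genes, 158 lower and 128 higher became 553 and 520 with DESeq2, 564 and 559 at FDR 0.05, and 66 and 16 at FDR 0.001. Quality weights gave 204 higher and the sensory neuron covariate 61. Without wild-type replicates 1 and 2, an alternative chosen after seeing the data, there were 90 lower and 19 higher. Leaving out single arches gave 110 to 249 lower and 42 to 143 higher. The 249 came without *Grhl2-/-* replicate 1, and higher calls were 76 or fewer without any 1 wild-type arch or without *Grhl2-/-* replicate 2, 4 or 5. The cause was not tested, apart from the thresholds. The log2 fold change of *Vangl1* turned positive with library size alone (0.0105), quality weights (0.0146) and the covariate (0.0587). It was also positive without wild-type replicates 1 and 2 (0.0248), and ranged from -0.0425 to 0.0586 over single arches left out. The log2 fold change of *Celsr3* turned to -0.14 with the covariate and -0.16 without the pair, and *Prickle2* ranged from -0.0529 to 0.117 over single arches left out.

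The label number was used as a replicate block. Arches of the 2 genotypes with the same number correlated at -0.237 to 0.420 (5 pairs), and 4 of 8 arches correlated best with their own number, and neither this nor the labels show whether the number marks a litter. The block gave 69 lower and 60 higher genes, 0 members, *Arhgef19* at FDR 0.00229 and *Prickle2* at a log2 fold change of -0.0841. *Dlg2*, with few reads, was at -0.41 with the block and at -0.68 to -1.37 over single arches left out.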
